A study of Mus musculus with 9 samples.

Results

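Inhibitory neurons of the mouse central amygdala with little or no proenkephalin transcript, Penk, were compared with those that carried more of it. A gene made a cell positive when at least 1 of every 10000 of its gene counts, without spike-ins, came from that gene. The cells were chosen by their own counts of Gad1, Gad2, Slc32a1, Slc17a6 and Slc17a7, and the classes by those of Penk, so the levels of these genes are given as a description. A neuron was called inhibitory when positive for Gad1, Gad2 or Slc32a1, which encode the GABA-making enzymes and the vesicular GABA transporter, and negative for Slc17a6 and Slc17a7, the genes of vesicular glutamate transporters. By this rule 810 of the 829 cells were inhibitory neurons, of which 182 were Penk-negative and 628 Penk-positive. The remaining 19 cells were left out. The study described the transcriptomes of inhibitory neurons of this nucleus by single-cell RNA-seq, in which the RNA of each dissociated cell is counted separately. All 9 samples were central amygdala of wild-type (WT) B6 mice, with cells microdissected, dissociated and pooled over acute brain slices, and no treatment is named. They carry 3 animal numbers crossed with 3 date fields, and the labels do not say whether each sample is an animal of its own. Each sample gave cells of both classes, so every comparison was made within samples, and a p-value measures the spread over these samples alone, which may be technical.

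Penk encodes the precursor that is cut into Met- and Leu-enkephalin, opioid peptides that act mainly on the delta and mu opioid receptors encoded by Oprd1 and Oprm1. In the central amygdala enkephalin-expressing GABAergic neurons are abundant, above all in its lateral division, and overlap in part with the neurons that express protein kinase C delta (Prkcd) and those that express somatostatin (Sst). The related precursors are Pdyn for dynorphins, Pnoc for nociceptin and Pomc for beta-endorphin, with Oprk1 and Oprl1 as the receptors for dynorphin and nociceptin.

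The Penk-negative class was the smaller in each sample. It held 13 to 31 cells per sample with a median of 19, against 64 to 76 Penk-positive cells. The Penk-negative share of inhibitory neurons was 22.3% ± 5.85 (SD, n = 9), from 15.5% in sample 9 to 32.6% in sample 4. It was 26.0% ± 8.05 (SD, n = 3) in the samples of animal number 1, 23.6% ± 2.67 (SD, n = 3) in those of number 2 and 17.2% ± 1.49 (SD, n = 3) in those of number 3. The values of animal number 1 spread over those of both others, since its sample of the third date field, sample 7, gave 17.1%.

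Penk itself chose the classes, so its levels are given as a description with no test. Penk-negative cells had a median of 2 Penk counts, and 49 of the 182 had none. Their median level was 0.102 per 10000 gene counts, against 16.0 in Penk-positive cells, whose highest cell reached 169. Penk-positive cells covered a wide range, with 5.17 at the 25th and 37.0 at the 75th percentile. The 5 Penk-negative cells nearest the threshold had 0.938 to 0.996 per 10000, and the 5 nearest Penk-positive cells 1.01 to 1.08. Levels ran on across the threshold, with 139 cells between 0.3 and 3 per 10000, 44 of them Penk-negative and 95 Penk-positive. Whether the few Penk counts of Penk-negative cells came from the cells themselves was not tested.

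**Figure D1:**
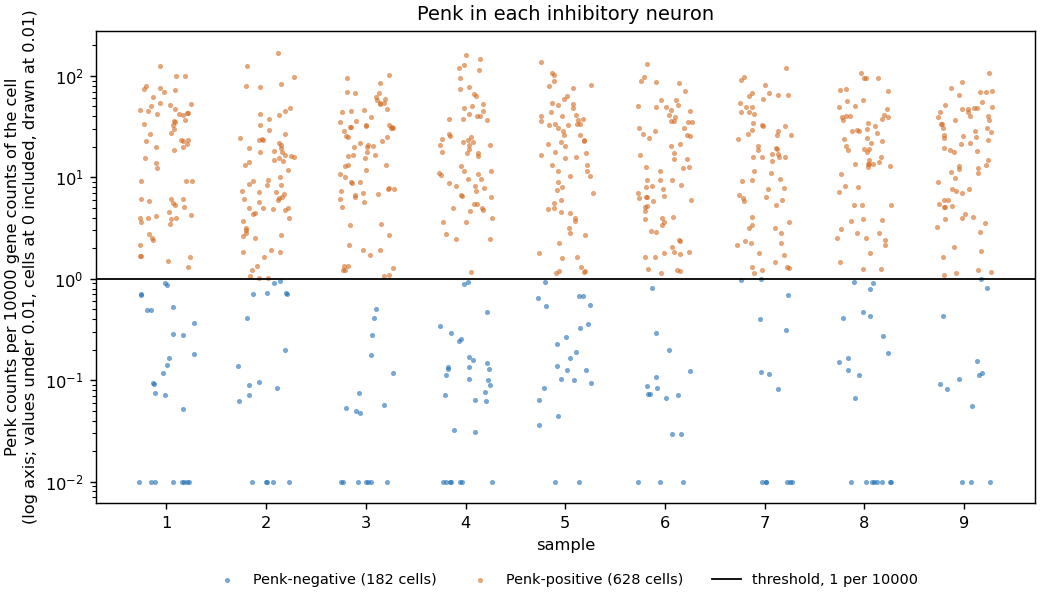
Penk counts per 10000 gene counts (log axis) in each of the 810 inhibitory neurons, 1 column of points per sample, with the threshold of 1 per 10000 as a line. Cells fill the range on both sides of the line in each sample, and Penk-negative cells are fewer than Penk-positive cells in all 9.

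In summed counts per sample, Penk was at 9.13 to 30.1 counts per 1000000 (CPM, out of all gene counts of that class in that sample), with a median of 20.5, in Penk-negative cells, and at 2013 to 3131, with a median of 2654, in Penk-positive cells. Gad1 and Gad2, which helped to choose the cells, had medians of 511 and 715 CPM in Penk-negative and 594 and 722 CPM in Penk-positive cells. Slc32a1 had 60.8 and 51.1 CPM.

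Depth per cell did not pass as different between the classes over the 9 samples. The median cell had 138447.5 gene counts and 4646.5 detected genes in the Penk-negative class and 124456 and 4510 in the Penk-positive class. Over 9 samples the difference in log2 gene counts was 0.09 ± 0.17 (SD), with an exact two-sided sign-flip permutation p of 0.203. Gene counts were higher in Penk-negative cells in 7 of the 9. Without sample 4 the difference was 0.11 and passed (exact permutation p = 0.031, adjusted p = 0.0469). The ratio of gene counts to spike-in counts, a measure of RNA per cell, was 0.08 ± 0.10 (SD) log2 units higher in Penk-negative cells. It was higher in 8 of the 9, with an exact permutation p of 0.0117 and an adjusted p of 0.0352 over 3 measures, and with 1 sample left out this passed only without sample 4 or sample 8. Summed gene counts per sample were 1329159 to 5523670 in the Penk-negative and 6441583 to 16920233 in the Penk-positive class, so values of the Penk-negative class rest on fewer cells and counts. Of 376 distinct well barcodes 368 occurred in cells of more than 1 sample, and no cells had identical counts.

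Genes of other cell types were low in both classes. The endothelial genes Cldn5, Flt1 and Pecam1 were at 0 counts in Penk-negative cells, and C1qa and C1qb of microglia were at 0 in both classes. Of 5 astrocyte genes, Aqp4 was at 0 in Penk-negative cells, and the sum of the 5 stayed at or below 3.83 CPM in Penk-negative and 7.80 CPM in Penk-positive cells. The 6 oligodendrocyte genes summed to 43.7 to 211 CPM in Penk-negative cells and to 105 to 3424 CPM in Penk-positive cells, and were lower in Penk-negative cells in 8 of 9 samples. Mbp, the myelin basic protein gene, was positive in 55 Penk-negative and 155 Penk-positive cells. The cholinergic genes Chat and Slc5a7 were each positive in 5 Penk-negative and 2 Penk-positive cells. Their sum reached 349 CPM in the highest Penk-negative sample and was at 0 in the median sample of either class.

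To see which kinds of neuron each class held, the share of cells positive for 28 markers was compared over the 9 samples. None of the 28 passed after adjustment (lowest adjusted p = 0.0547, exact two-sided sign-flip permutation with Benjamini-Hochberg adjustment), while 12 (42.9%) had an unadjusted p under 0.05. With 9 samples the smallest possible p was 0.00391.

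Among the classical markers, Prkcd-positive cells made up 36.4% ± 11.1 (SD, n = 9) of Penk-negative and 44.1% ± 8.59 of Penk-positive neurons (exact permutation p = 0.156), lower in 8 of 9 samples. Sst-positive cells made up 23.5% ± 9.65 and 16.7% ± 5.07 (exact permutation p = 0.0234, adjusted p = 0.0656), higher in 7 of 9 samples. Tac2, the neurokinin B precursor gene, was positive in 19.3% ± 13.4 and 11.8% ± 5.21, and Nts, the neurotensin gene, in 17.3% ± 7.11 and 13.1% ± 5.03. Crh, the gene of corticotropin-releasing hormone, was positive in 12.6% ± 8.10 and 9.57% ± 2.93. The differences for Tac2, Nts and Crh were within the spread between samples (exact permutation p from 0.0742 to 0.215).

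The 3 largest differences in share were those of the transcription factor genes Tshz2, Isl1 and Meis2. Tshz2-positive cells made up 59.5% ± 13.2 (SD, n = 9) of Penk-negative and 37.2% ± 5.26 of Penk-positive neurons (exact permutation p = 0.00781, adjusted p = 0.0547), higher in 8 of 9 samples. Isl1, a LIM homeobox gene, was positive in 20.8% ± 12.2 and 5.68% ± 3.05 (exact permutation p = 0.0156, adjusted p = 0.0608), also higher in 8 of 9. Sample 9 was the exception for both, with 30.8% of its Penk-negative cells positive for Tshz2 and none for Isl1. Foxp1, a forkhead factor gene, was positive in 12.2% ± 4.17 and 23.4% ± 6.46 (exact permutation p = 0.00391, adjusted p = 0.0547), lower in all 9 samples. Meis2 (59.0% ± 14.1 and 73.3% ± 5.12) and Sox5 (18.5% ± 6.44 and 30.1% ± 3.80) were positive in fewer Penk-negative cells, with adjusted p = 0.0608 each in the exact permutation test. Nr2f2, Foxp2, Tshz1, Tox and Rarb had exact permutation p values from 0.0742 to 0.758.

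Among peptide and receptor genes, Pdyn was positive in 29.6% ± 13.2 (SD, n = 9) of Penk-negative and 17.9% ± 5.41 of Penk-positive cells, and Oprl1 in 33.8% ± 5.06 and 23.2% ± 6.46, each higher in 7 of the 9 (for both, exact permutation p = 0.0195 and adjusted p = 0.0608). The dopamine receptor gene Drd2 was positive in 0.855% ± 2.56 and 3.63% ± 2.10, lower in all 9 samples (exact permutation p = 0.00391, adjusted p = 0.0547). These shares rest on 1 Penk-negative and 23 Penk-positive cells. The 1 Penk-negative cell was in sample 9, where the shares were 7.69% and 8.45%. In the other samples any Drd2-positive cell of the larger class made the Penk-negative share the lower. Cck, the cholecystokinin gene, was positive in 3.48% ± 3.41 and 9.63% ± 5.33, and higher in Penk-negative cells in none of the 9.

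**Figure D2:**
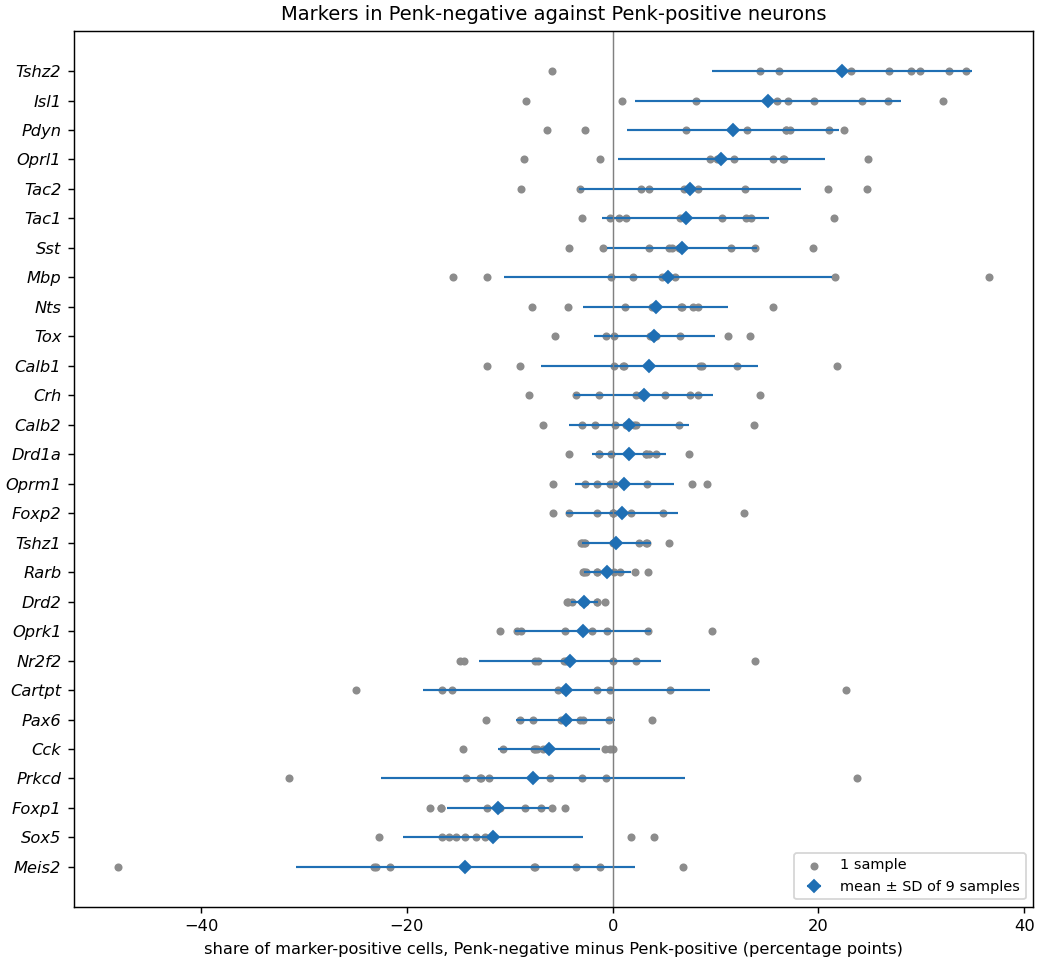
Share of cells positive for each of 28 markers in Penk-negative minus Penk-positive neurons, in percentage points, with the mean ± SD of 9 samples (diamonds) and each sample (grey points). Tshz2 and Isl1 stand highest at 22.3 and 15.1 points, Meis2, Sox5 and Foxp1 lowest at -14.3, -11.6 and -11.1 points, and no marker passed after adjustment.

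Combinations of markers were counted as well. Of the 76 Isl1-positive neurons 40 were Penk-negative, as were 35 of the 64 Isl1-positive cells without Prkcd. Of the 201 cells with Sst, Crh, Tac2 or Nts but no Prkcd 63 (31.3%) were Penk-negative. Of the 289 Prkcd cells with none of these 4 peptide genes 49 (17.0%) were, and of the 54 cells with Prkcd and at least 1 of them 16 (29.6%). Of the 139 cells that had none of the 5 classical markers and no Isl1 but Nr2f2, Foxp1 or Pax6, 15 (10.8%) were Penk-negative. These counts pool cells over samples and carry no test.

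Counts were then summed per sample and class and tested over genes with edgeR (quasi-likelihood, sample as a block, Benjamini-Hochberg adjustment). Of 11516 genes tested 23 passed at an adjusted p under 0.05 (0.2%), 14 higher (0.122%) and 9 lower (0.0782%) in Penk-negative cells. At an unadjusted p under 0.05, 431 genes (3.74%) were higher and 764 (6.63%) lower. The 14 genes that passed as higher were Tshz2, Satb1, Stmn2, Tubb3, Tuba1b, Mtap1b, Sept6, Pcp4, Gnas, Flot1, Sh3gl2, Peg3, Sparcl1 and Aldoc. The 9 that passed as lower include the forkhead factor gene Foxp1, the stress and activity gene Gadd45g, the retinoic acid-degrading enzyme gene Cyp26b1 and the cyclin genes Ccnd1 and Ccnd2. Of the 23, 18 differed in the same direction in all 9 samples (1.37% of all genes tested did), and in 4 the 9 samples of the classes did not overlap (0.0782% of all genes).

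Satb1, which encodes a chromatin organizer found in subsets of forebrain interneurons, was at 23.3 to 92.5 CPM in Penk-negative cells with a median of 45.4. In Penk-positive cells it was at 3.45 to 27.4 CPM with a median of 8.10. The classes overlapped only through the highest Penk-positive sample, sample 4, which was also the highest Penk-negative sample. The log2 fold change was 2.30 ± 0.31 (SE, edgeR adjusted p = 0.00816), higher in 9 of 9 samples. Tshz2, a zinc finger homeobox gene of the teashirt family, was at 130 to 388 CPM with a median of 337 in Penk-negative and at 95.3 to 166 CPM with a median of 149 in Penk-positive cells. Sample 9 had the lowest Penk-negative value and alone lay within the Penk-positive range. The log2 fold change of Tshz2 was 1.04 ± 0.13 (SE, edgeR adjusted p = 0.00508).

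Stmn2, which encodes the microtubule regulator SCG10 of growing axons, was at 493 to 1046 CPM with a median of 622 in Penk-negative and at 217 to 606 CPM with a median of 375 in Penk-positive cells. It was higher in Penk-negative cells within each of the 9 samples although the ranges overlapped, by 0.89 ± 0.12 log2 units (SE, edgeR adjusted p = 0.00816). Pcp4, which encodes a small modulator of calmodulin, was at 201 to 695 CPM with a median of 379, against 132 to 299 CPM with a median of 207. Its difference was 0.95 ± 0.14 log2 units (SE, edgeR adjusted p = 0.0139), with sample 4 the highest Penk-negative sample. The beta-tubulin gene Tubb3 had medians of 468 and 327 CPM and differed by 0.51 ± 0.08 (SE, adjusted p = 0.0272). Sept6, a septin gene, had medians of 100 and 50.7 CPM (log2 fold change 0.90), Tuba1b, an alpha-tubulin gene, 279 and 207 CPM (0.43), and Sh3gl2, the endophilin A1 gene of synaptic vesicle recycling, 224 and 180 CPM (0.48). Flot1, a flotillin gene of membrane microdomains, had medians of 259 and 150 CPM (0.81). Sept6, Tuba1b, Sh3gl2 and Flot1 were each higher in 9 of 9 samples.

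Sparcl1, a secreted matrix protein gene, was at 49.2 to 224 CPM with a median of 160 in Penk-negative and at 27.7 to 106 CPM with a median of 42.3 in Penk-positive cells. The ranges overlapped, and the log2 fold change was 1.48 ± 0.24 (SE, edgeR adjusted p = 0.0269). Aldoc, the aldolase C gene, was higher in 8 of 9 samples, with medians of 177 and 114 CPM (log2 fold change 1.09 ± 0.20 SE, edgeR adjusted p = 0.0484). Beside these, the defining astrocyte genes Aqp4, Gfap, Aldh1l1, Gja1 and Slc1a3 had between 0 and 12 counts each in all Penk-negative cells together. Gnas, which encodes the stimulatory G protein alpha subunit, had medians of 2229 and 1737 CPM and was higher in 8 of 9 samples (0.44 ± 0.07 SE, edgeR adjusted p = 0.0296). Peg3 and Mtap1b, the gene of microtubule-associated protein 1B, passed as well but were each lower in 1 sample, so they fell outside the rule for named genes and were chosen after their values were seen. Their log2 fold changes were 0.44 and 0.41.

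On the other side, Ctxn3, which encodes the small membrane protein cortexin 3, had 1 count in all Penk-negative cells and 1463 in all Penk-positive cells. It was at 5.84 to 51.3 CPM in the Penk-positive class, with sample 4 the highest, and at 0 in the Penk-negative class of 8 samples, so the classes did not overlap. In CPM of the summed counts the Penk-positive level was 459 times the Penk-negative level (95% counting interval 82.3 to 18161, which covers counting error only), with an edgeR adjusted p of 0.00496. Ccnd1, the cyclin D1 gene, had 8 and 1031 counts. Its samples did not overlap either, at 0 to 1.44 CPM in Penk-negative and 2.46 to 22.9 CPM in Penk-positive cells (log2 fold change -5.69 ± 0.97 SE, edgeR adjusted p = 0.0299). Cyp26b1, whose enzyme breaks down retinoic acid, was at 0.38 to 10.1 CPM with a median of 3.25 against 17.0 to 30.5 CPM with a median of 22.6. These did not overlap, and the log2 fold change was -3.09 ± 0.51 (SE, edgeR adjusted p = 0.0272).

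Foxp1 was at 19.4 to 60.5 CPM with a median of 32.2 in Penk-negative and at 34.5 to 150 CPM with a median of 78.1 in Penk-positive cells. Sample 4 was the highest in both classes, and Foxp1 was lower in Penk-negative cells within each of the 9 samples, by -1.19 ± 0.16 log2 units (SE, edgeR adjusted p = 0.00816). Gadd45g, which is induced by stress and by neuronal activity, was at 170 to 381 CPM with a median of 207 against 297 to 660 CPM with a median of 503. It overlapped through sample 7, the highest Penk-negative sample, and differed by -1.02 ± 0.14 (SE, edgeR adjusted p = 0.00816). The calcium sensor gene Ncald was at 100 to 247 CPM against 260 to 329 CPM, with no overlap (-0.68 ± 0.12 SE, edgeR adjusted p = 0.0383). Icam5, the gene of the dendritic adhesion molecule telencephalin, had medians of 175 and 274 CPM (-0.60). Ccnd2, the cyclin D2 gene, with a log2 fold change of -1.27, and Cldn26, a gene named as a claudin, with 14 and 488 counts, passed but fell outside the naming rule.

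**Figure D3:**
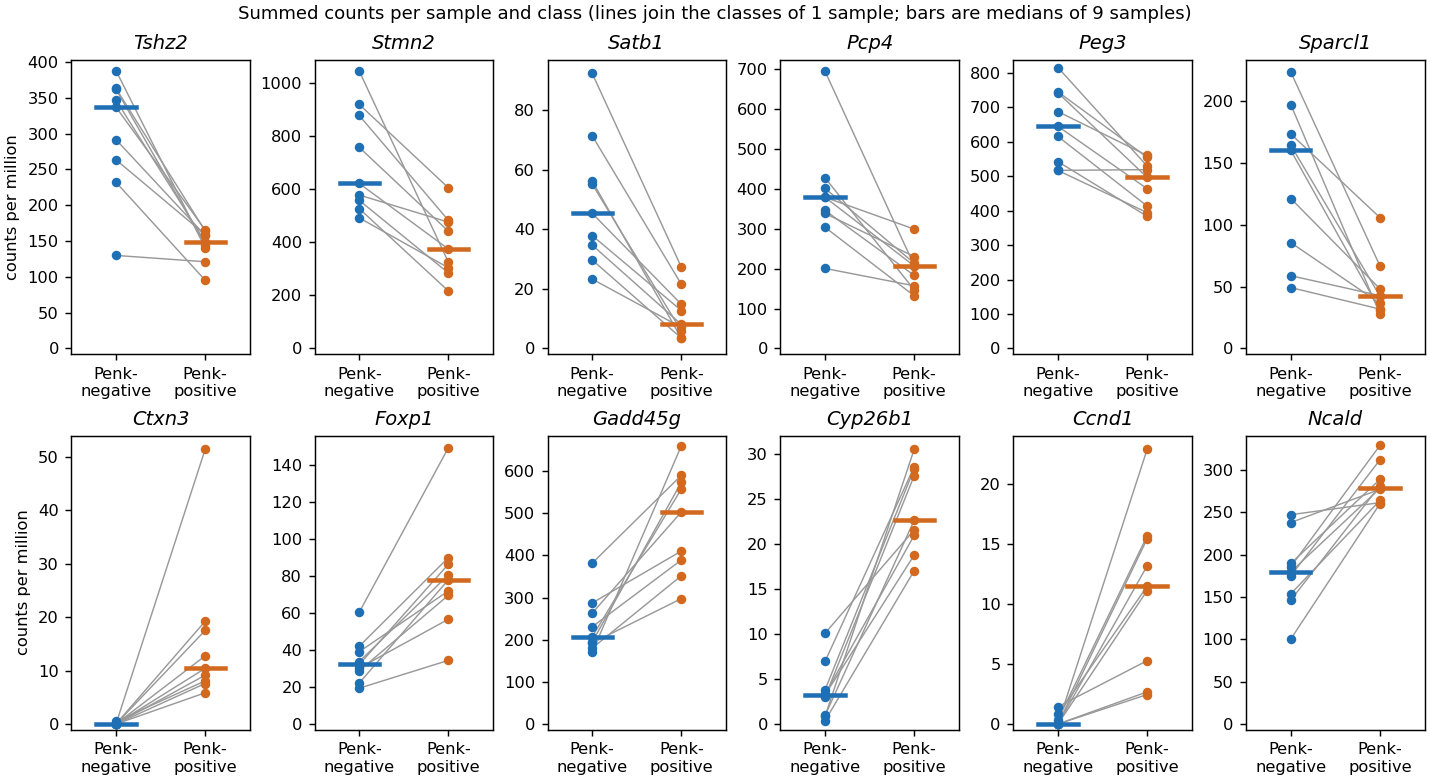
CPM in Penk-negative and Penk-positive neurons for the 6 genes of smallest p on each side, 1 line per sample (9), with bars at the medians. Each line of Tshz2, Stmn2, Satb1, Pcp4 and Sparcl1 falls from left to right, as do 8 of 9 for Peg3, and each line of the 6 lower genes rises.

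How many of the 23 genes passed again differed between settings. All 23 passed with DESeq2, 20 with positive cells set at 3 counts per 10000 and 19 without the cells at 0.3 to 3, against 6 in every fit with a sample left out and 5 with equal cell numbers. With 1 sample left out, 4 to 6 genes were higher and 3 or 4 lower without samples 1, 2, 3, 4, 6, 8 or 9, 12 and 5 without sample 7, and 30 and 18 without sample 5. Tshz2, Satb1, Stmn2, Pcp4, Foxp1 and Gadd45g passed in each of these 9 fits.

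With as many Penk-positive as Penk-negative cells drawn per sample, 4 genes were higher and 2 lower, among them Tshz2, Stmn2, Flot1, Gadd45g and Ncald of the 23. The median log2 fold change of all genes was then 0.01 in place of -0.11, and 466 genes were higher and 367 lower at an unadjusted p under 0.05, so the excess of lower over higher genes was not there with equal cell numbers. DESeq2 called 165 genes higher and 282 lower. Sums per animal number or per date field gave no call in edgeR, with 446 higher and 540 lower, and 551 and 596, at an unadjusted p under 0.05.

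Because the mean Isl1 share was higher in the Penk-negative class, although this did not pass after adjustment, genes were tested again without Isl1-positive cells. Of the 23 genes Tshz2, Stmn2, Flot1 and Foxp1 passed, and no other gene did, in classes of 142 and 592 cells. Without cells positive for Sst, Crh, Tac2 or Nts, 103 and 452 cells were left, and Stmn2, Ctxn3 and Mtap1b passed. Without Mbp-positive cells 10 of the 23 passed, and without the Chat-positive cells 13 genes were higher and 7 lower. Fewer cells per class in these fits and the loss of those cells cannot be told apart.

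Among 39 tested of 56 transcription factors of forebrain inhibitory neurons, Tshz2 and Satb1 were higher and Foxp1 was lower, and 36 did not pass. Over all genes tested 0.122% passed as higher and 0.0782% as lower. At an unadjusted p under 0.05 in edgeR 3 of the 39 were higher and 7 lower, against 3.74% and 6.63% of all genes. The median log2 fold change of the list was -0.20, against -0.11 over all genes tested. Isl1, which in the striatum marks neurons of the direct pathway, was at 0 to 136 CPM with a median of 71.1 in Penk-negative cells and at 7.30 to 36.1 CPM with a median of 18.4 in Penk-positive cells. It was higher in 7 of 9 samples, with sample 9 at 0 in the Penk-negative class, and its log2 fold change was 1.59 ± 0.56 (SE, edgeR adjusted p = 0.336). With positive cells set at 3 counts per 10000, Isl1 passed (log2 fold change 2.10, edgeR adjusted p = 0.00971). Pax6 had medians of 8.08 and 25.7 CPM (-1.89 ± 0.61 SE, edgeR adjusted p = 0.278) and was lower in 8 of 9 samples. Id4, the gene of an inhibitor of basic helix-loop-helix factors, was lower in 9 of 9 samples, with medians of 31.3 and 70.6 CPM (edgeR adjusted p = 0.0828). Nr2f2, Meis2, Sox5, Foxp2 and Tshz1 had log2 fold changes of -0.87, -0.39, -0.83, -0.20 and -0.31 and did not pass. Foxp2, Tshz1, Oprm1 and Erbb4, which mark intercalated cells, summed to medians of 78.2 CPM in Penk-negative and 28.1 CPM in Penk-positive cells, higher in 7 of 9 samples. Erbb4 alone of the 4 had more counts in the smaller Penk-negative class, 1193 against 911, and was positive in 17 Penk-negative and 23 Penk-positive cells. Foxp2, Tshz1 and Oprm1 had 350, 255 and 234 counts in Penk-negative cells, against 1002, 493 and 686. Of 6 intercalated cell genes tested none passed, and 0 were higher and 1 lower at an unadjusted p under 0.05 in edgeR (3.74% and 6.63% of all genes). The median log2 fold change of these 6 was -0.22, beside -0.11 over all genes tested, with 2 above 0 and 4 below. Id4 and Sox5 were chosen after their values were seen.

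No other opioid gene passed. Of 6 opioid precursor and receptor genes tested beside Penk, 2 had an unadjusted p under 0.05, both higher in Penk-negative cells. Of all genes tested 3.74% were higher at that threshold. Pnoc was at 44.3 to 158 CPM with a median of 102 against 17.4 to 98.7 CPM with a median of 62.0, higher in 7 of 9 samples (0.79 ± 0.27 SE, edgeR adjusted p = 0.31). Its receptor gene Oprl1 was at 63.6 to 126 CPM with a median of 88.1 against 40.6 to 81.9 CPM with a median of 67.3, higher in 8 of 9 (0.57 ± 0.18 SE, edgeR adjusted p = 0.278). The classes overlapped for both genes. Pdyn was at 17.2 to 680 CPM with a median of 368 against 133 to 557 CPM with a median of 325, higher in 4 and lower in 5 samples (-0.26 ± 0.34 SE), which differs in sign from its share of positive cells. Pomc had medians of 24.2 and 14.9 CPM (0.71 ± 0.35 SE) and Oprk1 12.4 and 27.0 CPM (-1.12 ± 0.72 SE). Oprm1 had medians of 7.36 and 7.62 CPM (-0.25 ± 0.92 SE). Oprd1 had 25 counts in Penk-negative and 74 in Penk-positive cells and was too low to test. Of the 17 genes for peptide processing and secretory granules none passed in edgeR, and 1, the amidating enzyme gene Pam, was higher at an unadjusted p under 0.05. Of 4 tested genes for enkephalin-degrading peptidases none passed, and none had an unadjusted p under 0.05.

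The classical marker genes did not pass either in summed counts. Prkcd was at 77.5 to 509 CPM with a median of 175 in Penk-negative and at 209 to 497 CPM with a median of 316 in Penk-positive cells, lower in 7 of 9 samples (-0.67 ± 0.23 SE, edgeR adjusted p = 0.31). Sst had medians of 497 and 480 CPM (-0.05 ± 0.32 SE), Crh 123 and 98.8 CPM (-0.11 ± 0.64 SE), Tac2 343 and 283 CPM (0.27 ± 0.40 SE) and Nts 386 and 211 CPM (0.42 ± 0.46 SE). In these 4 the classes overlapped widely, with Sst of sample 4 at 98.9 and Crh of sample 6 at 0.319 CPM in Penk-negative cells. Cartpt, the precursor gene of CART peptide, had medians of 464 and 603 CPM (-0.16 ± 0.29 SE).

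Of 10 tested genes among 21 other neuropeptides none passed in edgeR, 1 was higher and 1 lower at an unadjusted p under 0.05 (3.74% and 6.63% of all genes tested). Cck was at 0 to 53.4 CPM with a median of 3.90 in Penk-negative and at 0.99 to 176 CPM with a median of 55.3 in Penk-positive cells, lower in 9 of 9 samples (-2.87 ± 0.60 SE, edgeR adjusted p = 0.0828). Tac1, the substance P precursor gene, was at 11.9 to 382 CPM with a median of 172 against 8.84 to 158 CPM with a median of 43.3, higher in 5 and lower in 4 samples (1.65 ± 0.69 SE, edgeR adjusted p = 0.431). Npy, the neuropeptide Y gene, was positive in 5 Penk-negative and 7 Penk-positive cells, and reached 1615 CPM in the Penk-positive cells of sample 5. Of 18 neuropeptide receptor genes tested none passed, and 0 were higher and 3 lower at an unadjusted p under 0.05 in edgeR (3.74% and 6.63% of all genes tested). Among the 3 was Calcrl, which encodes the receptor part for calcitonin gene-related peptide (0.319 and 9.71 CPM in the median sample, -3.05 ± 1.24 SE), chosen after its values were seen.

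Immediate early and stress genes are switched on within minutes of strong stimulation. Of 33 such genes 27 were tested, 1 passed (Gadd45g, lower), and 10 were lower and 1 higher at an unadjusted p under 0.05, against 6.63% and 3.74% of all genes. The list's median log2 fold change was -0.82, beside -0.11 over all genes, and it was -0.44 with equal cell numbers. Npas4, an activity-induced transcription factor gene of neurons, was at 2.44 to 34.6 CPM with a median of 11.3 in Penk-negative and at 32.9 to 71.1 CPM with a median of 46.3 in Penk-positive cells. It was lower in 9 of 9 samples, with a small overlap (-1.98 ± 0.42 SE, edgeR adjusted p = 0.0838). Fos was at 53.8 to 260 CPM with a median of 98.2 against 142 to 281 CPM with a median of 187, lower in 9 of 9 (-0.82 ± 0.22 SE, edgeR adjusted p = 0.194). Egr1 (-0.89), Junb (-0.69), Egr4 (-0.63) and Dusp1 (-1.33) had edgeR adjusted p values from 0.127 to 0.31. Cells were dissociated before they were read, and whether that step bears on these genes was not tested. These 6 genes were chosen after their values were seen.

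Genes of striatal projection neurons gave 0 of 18 tested past the edgeR threshold, with 6 lower and 1 higher at an unadjusted p under 0.05 (6.63% and 3.74% of all genes tested). The list's median was -0.32, beside -0.11 over all genes. Of the 18 genes 6 had a log2 fold change above 0 and 12 below, beside 4240 and 7276 of all 11516 genes tested. Ppp1r1b, the gene of the dopamine-regulated phosphatase inhibitor DARPP-32, was at 80.8 to 346 CPM with a median of 255 against 287 to 495 CPM with a median of 404, lower in 9 of 9 samples (-0.88 ± 0.17 SE, edgeR adjusted p = 0.0662). Gng7, a G protein gamma subunit gene, was at 24.3 to 66.1 CPM against 76.2 to 118 CPM, with no overlap (-0.79 ± 0.17 SE, edgeR adjusted p = 0.0828). Pde10a, a striatal phosphodiesterase gene, had medians of 55.9 and 90.9 CPM (-0.68 ± 0.20 SE). The dopamine receptor genes Drd1a and Drd2 had medians of 8.75 and 8.63 CPM and of 1.63 and 8.24 CPM (edgeR adjusted p = 0.878 and 0.431). Summed levels of 6 genes that mark striatal projection neurons were 182 to 524 CPM in Penk-negative and 460 to 686 CPM in Penk-positive cells, lower in 8 of 9 samples. Ppp1r1b gave the largest part of this sum, with 6456 and 36590 counts. Rgs9, the next largest, had 3180 and 9011 counts, and was positive in 73 of 182 Penk-negative and 236 of 628 Penk-positive cells. Ppp1r1b, Gng7 and Pde10a were chosen after their values were seen.

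Of 14 general neuron genes tested 2 passed (Stmn2 and Tubb3, both higher), and 6 were higher and 0 lower at an unadjusted p under 0.05, with a median log2 fold change of 0.21. Over all genes tested 0.122% passed as higher, 3.74% were higher at an unadjusted p under 0.05, and the median was -0.11. Nefl, the neurofilament light chain gene, had medians of 334 and 248 CPM (0.59 ± 0.13 SE, edgeR adjusted p = 0.085), and Uchl1, a neuronal ubiquitin hydrolase gene, 1619 and 1436 CPM (0.20 ± 0.06 SE, adjusted p = 0.256). Each was higher in 8 of 9 samples and was chosen after its values were seen.

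GABA and glycine receptor genes had a median of 0.29, with 0 of 18 passing in edgeR, and 7 higher and 1 lower at an unadjusted p under 0.05, where 3.74% of all genes tested were higher and 6.63% lower, with a median of -0.11. Gabrb2, a beta subunit gene of the GABA-A receptor, had medians of 156 and 118 CPM (0.46 ± 0.15 SE) and was chosen after its values were seen. Among Prkcd-positive cells alone the list's median was -0.25, beside -0.30 over all genes tested there.

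The other channel, receptor and adhesion lists held 1 gene that passed, Gnas among 33 regulators of cyclic nucleotide and G protein signalling. Of these 33, 5 were higher and 6 lower at an unadjusted p under 0.05 in edgeR, against 3.74% and 6.63% of all genes tested. No gene passed in edgeR among 23 glutamate receptor genes (1 higher and 0 lower at an unadjusted p under 0.05), 35 potassium channel genes (2 and 3), 32 sodium, calcium, HCN and TRP channel genes (2 and 2), 18 monoamine, acetylcholine, adenosine and cannabinoid receptor genes (1 and 3) or 53 axon guidance and adhesion genes (3 and 6). The same shares of all genes, 3.74% higher and 6.63% lower, stand beside these counts. The medians of the lists lay between -0.20 and 0.09, beside -0.11 for all genes.

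Penk levels in Penk-positive cells spanned a wide range, so gene levels were also read over 4 ranges of Penk, under 0.3 (138 cells), 0.3 to 3 (139), 3 to 30 (333) and 30 or more (200) counts per 10000. These cells are those compared above, so the values are a description. Tshz2 fell from a median of 330 CPM over samples in the lowest range to 260, 184 and 41.9 CPM, and the highest range, at 2.90 to 78.1 CPM over samples, lay below the lowest range, at 131 to 411 CPM. Stmn2 was at 695, 690, 378 and 201 CPM. Isl1 was at 87.5, 42.3, 17.6 and 2.89 CPM. Satb1 differed in that its levels were at 48.1 and 36.0 CPM below 3 counts of Penk per 10000 and at 4.12 and 8.01 CPM above, with no lower value in the highest range than in the one before.

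Of the genes lower in Penk-negative cells, several were highest in the top range. Foxp1 was at 37.0, 38.3, 61.8 and 125 CPM. Cyp26b1 was at 3.42, 8.34, 22.4 and 34.4 CPM. Ccnd1 was at 0, 0.536, 4.23 and 27.0 CPM, and so was found mostly in the cells richest in Penk. Npas4 was at 9.86, 35.3, 39.8 and 56.1 CPM. Cldn26 did not follow this order, at 0, 7.92, 3.45 and 0 CPM, and it no longer passed with positive cells set at 3 counts per 10000 (edgeR adjusted p = 0.991). Gadd45g stepped up between the lowest range and the next, with 214, 415, 414 and 514 CPM. Prkcd showed no such order, with 171, 352, 260 and 370 CPM. Other peptide genes had their lowest median in the top range. Sst was at 396, 691, 667 and 28.8 CPM, and Pdyn at 348, 445, 453 and 18.6 CPM. Nts was at 75.8, 572, 250 and 25.8 CPM, Tac2 at 284, 732, 365 and 70.3 CPM, and Crh at 69.1, 196, 94.3 and 19.1 CPM. Samples overlapped, with Sst at 10.8 to 575 CPM in the top range and at 80.4 to 792 CPM in the lowest.

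**Figure D4:**
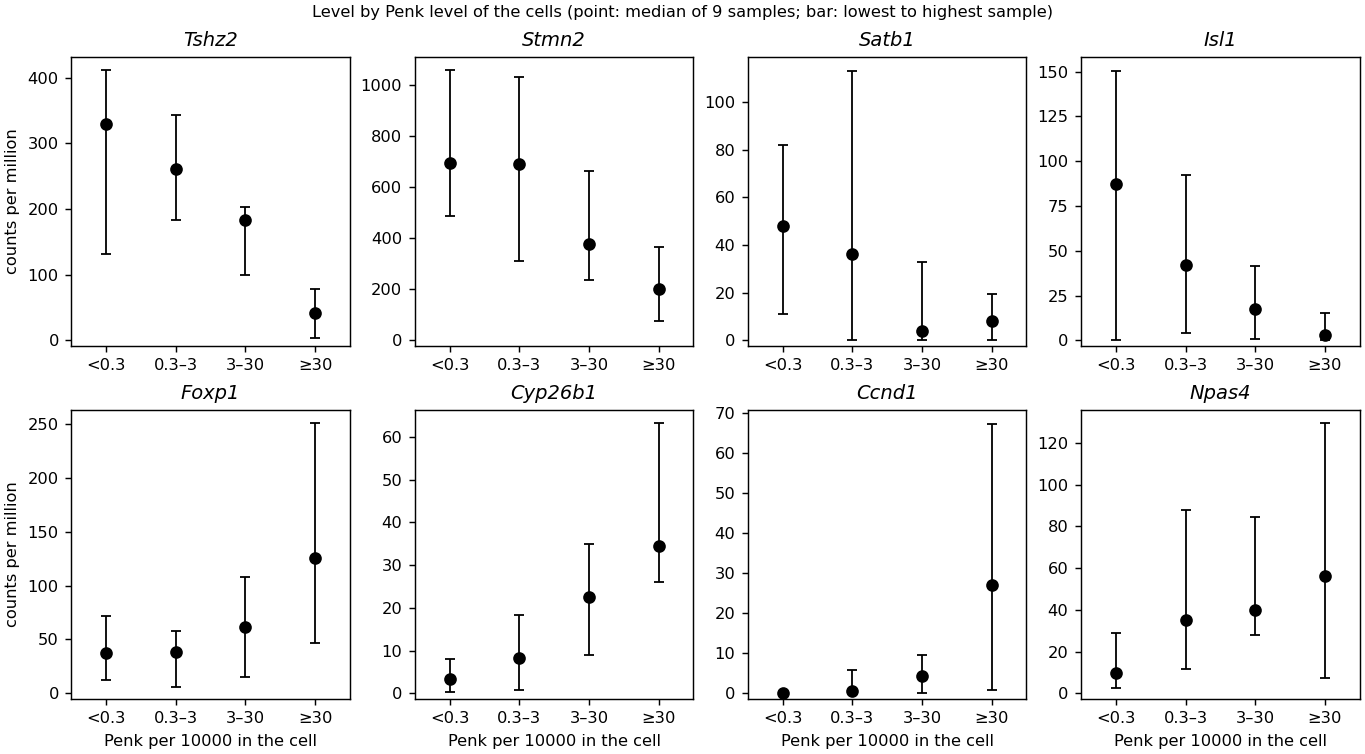
CPM of 8 genes in cells of 4 ranges of Penk (counts per 10000 gene counts), as the median of 9 samples with bars from the lowest to the highest sample. Medians of Tshz2 and Isl1 fall over the ranges from 330 to 41.9 and from 87.5 to 2.89 CPM, while those of Cyp26b1 and Ccnd1 rise from 3.42 to 34.4 and from 0 to 27.0 CPM.

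To compare the classes without Prkcd cells, the test was run on the 467 inhibitory neurons negative for Prkcd, 117 Penk-negative and 350 Penk-positive. These are of several kinds, 201 with Sst, Crh, Tac2 or Nts and 266 with none of the 5 classical markers, of which 31.3% and 20.3% were Penk-negative over the pooled cells. These cells are among those already compared, so the result is no independent support. Of 10617 genes 11 passed (0.104%), 4 higher (0.0377%) and 7 lower (0.0659%) in Penk-negative cells. Tshz2, Satb1, Sparcl1, Aldoc, Ctxn3, Foxp1 and Gadd45g passed here as over all cells. The log2 fold change of Foxp1 was -1.59 ± 0.21 (SE, edgeR adjusted p = 0.0068) and that of Gadd45g -1.30 ± 0.16 (SE, edgeR adjusted p = 0.00398).

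Nnat, Malat1, Epha4 and Hpcal4 passed among Prkcd-negative cells and not over all inhibitory neurons. Nnat, the imprinted gene of the membrane proteolipid neuronatin, was at 189 to 446 CPM with a median of 312 in Penk-negative and at 405 to 811 CPM with a median of 604 in Penk-positive cells that lacked Prkcd. It was lower in 9 of 9 samples with a small overlap (-1.01 ± 0.10 SE, edgeR adjusted p = 0.000475). Epha4, an ephrin receptor gene, had medians of 137 and 240 CPM (-0.75 ± 0.12 SE, edgeR adjusted p = 0.0231). Malat1, a long nuclear RNA, had medians of 28583 and 31936 CPM (-0.19 ± 0.03 SE, edgeR adjusted p = 0.0173), and Hpcal4, a neuronal calcium sensor gene, which was lower in 8 of 9 samples and fell outside the naming rule, 282 and 457 CPM (-0.63 ± 0.11 SE, edgeR adjusted p = 0.0496). With equal cell numbers 0 genes were higher and 1 lower, with 271 and 245 at an unadjusted p under 0.05 in edgeR. Leaving out sample 3 or sample 4 left no higher gene (265 and 238 higher at an unadjusted p under 0.05).

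Among Prkcd-positive neurons, 61 Penk-negative and 247 Penk-positive cells in the 8 samples with at least 5 cells of each class, 1 of 9809 genes passed (0.0102%). That gene was Tshz2, at 213 to 595 CPM with a median of 308 in Penk-negative and at 83.1 to 183 CPM with a median of 134 in Penk-positive cells. The classes did not overlap (0.173% of the genes tested there did not), and the log2 fold change was 1.38 ± 0.18 (SE, edgeR adjusted p = 0.024), beside 0.84 ± 0.12 among Prkcd-negative cells. The difference of these effects did not pass (edgeR adjusted p = 0.907). Satb1 was at a median of 0 CPM in Penk-negative and 4.49 CPM in Penk-positive cells with Prkcd, and Aldoc at 1.21 and 4.11 CPM, too low for the test.

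**Figure D5:**
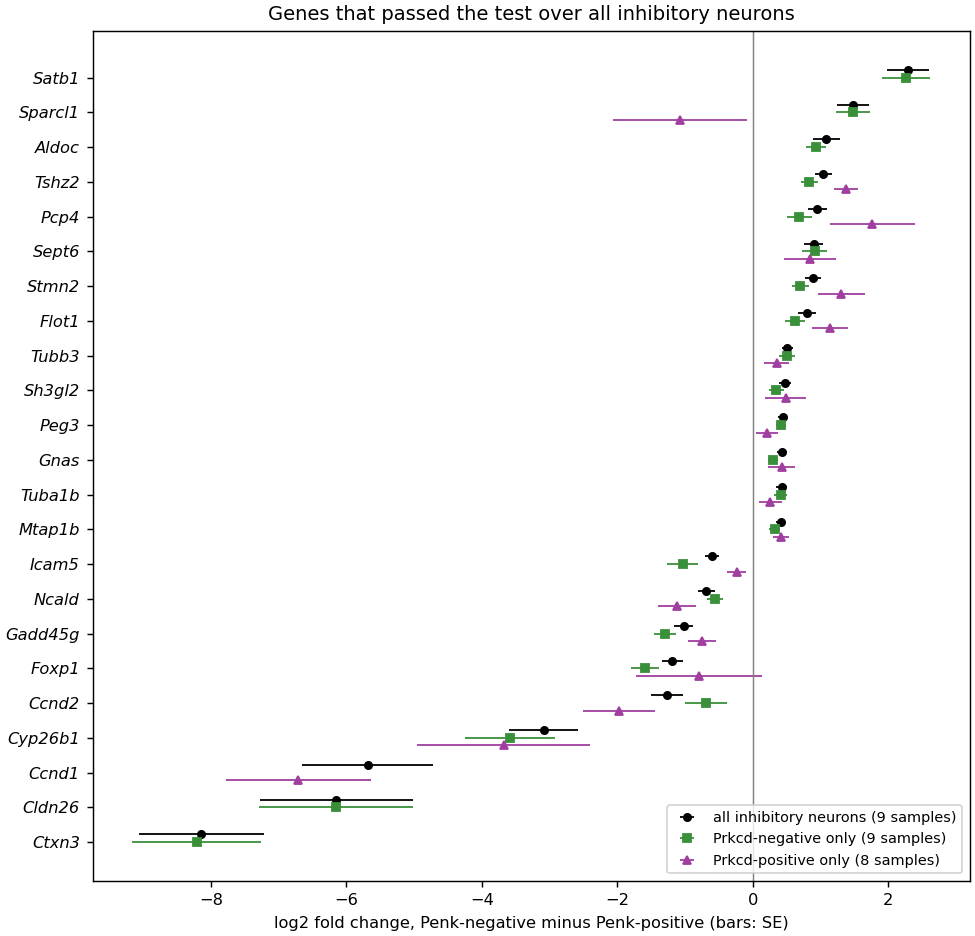
Log2 fold change (Penk-negative minus Penk-positive, bars show the SE) of the 23 genes that passed, over all inhibitory neurons, Prkcd-negative and Prkcd-positive neurons. All 22 genes tested among Prkcd-negative cells have the sign of the whole, as do 18 of the 19 tested among Prkcd-positive cells, Sparcl1 being the exception.

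Whether the Penk difference depended on Prkcd was tested as a difference of effects over 8 samples, an alternative chosen after the data were seen. Of 11598 genes 7 passed (0.0604%). Nnat was lower in Penk-negative cells without Prkcd, but among cells with Prkcd its median was 1632 CPM in Penk-negative and 1594 CPM in Penk-positive cells, and the difference of the log2 fold changes was -1.05 (edgeR adjusted p = 0.0141). Medians of Syt4, which encodes a synaptotagmin of dense-core vesicles, differed in opposite directions. Without Prkcd it was at 194 to 897 CPM (median 738) in Penk-negative and 232 to 541 CPM (median 368) in Penk-positive cells. With Prkcd it was at 8.83 to 230 CPM (median 73.7) and 104 to 197 CPM (median 175). The difference of effects passed (edgeR adjusted p = 0.0233), but the ranges overlapped and Syt4 did not pass within either Prkcd class. Pltp, the phospholipid transfer protein gene, had 1 count in Penk-negative cells without Prkcd and a median of 51.4 CPM in those with Prkcd, against 6.53 and 41.9 CPM in Penk-positive cells (edgeR adjusted p = 0.0141).

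The other 4 genes, Ipcef1, Rtkn, Cacng5 and Grin3a, had 1, 0, 7 and 1 counts in Penk-negative cells with Prkcd. In Penk-negative cells without Prkcd their medians were 22.0, 31.3, 29.0 and 68.4 CPM, and in Penk-positive cells 19.0, 29.5, 17.3 and 53.5 CPM without and 12.8, 4.77, 9.75 and 10.7 CPM with Prkcd. Cacng5 encodes an auxiliary subunit of AMPA receptors and Grin3a an NMDA receptor subunit. Since the Penk-negative cells with Prkcd were 61, these low counts rest on few cells.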

How the data were processed

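Single-cell RNA-seq of 9 samples of wild-type mouse central amygdala was used. The authors deposited raw counts per gene and cell for 22601 genes and 91 ERCC spike-ins, with a table of animal number and date field per cell. Per the submitters' processing notes, Seurat was used and the genome was NCBIM37. How reads were aligned and assigned to genes, and whether molecular identifiers were counted, the labels do not state, so intervals cover counting error only. The samples held 85 to 95 cells and 8522750 to 22730327 gene counts.

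Counts were summed per sample and class, for samples with at least 5 cells of each class, and fitted in R 4.3.3 with edgeR 4.0.16 by its quasi-likelihood test, after filterByExpr and TMM scaling, with sample as a block. The block pairs the classes because both come from the same sample. Fold changes are those of this fit and can differ from ratios of medians. Genes that chose the cells (Penk, Gad1, Gad2, Slc32a1, Slc17a6, Slc17a7, and Prkcd within its classes) were not tested. Shares and depth were compared within samples by an exact permutation test that flips signs (two-sided), for markers positive in at least 2% of cells. Cells with low counts were kept, and doublets were not searched for.

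Of 534 genes on 27 lists, 514 were found in the counts and 20 were not used here. Members, lists and tests were chosen with earlier results of these data known. The genes named are up to 15 per side with the largest fold among those that passed, had at least 10 CPM in the higher class and moved one way in each sample, up to 3 passing members per list, and a fixed set of peptide, receptor, factor and GABA genes whatever their result. Results of 1 gene are not reported here. Also tried were DESeq2 1.42.0, median-of-ratios scaling, no block, no filter, a threshold of 1 count or of 3 per 10000, cells thinned to 74000 gene counts, equal cell numbers, sums per animal number, and leaving out samples, cells under 20000 counts, cells with Penk at 0.3 to 3 per 10000, or cells positive for Mbp or Isl1, and Penk before scaling. Chosen after the data were seen were Prkcd-positive cells alone, leaving out cells positive for Chat or for Sst, Crh, Tac2 or Nts, sums per date field, and the test of the difference between Prkcd classes. On simulated sums 44% of 100 genes changed 2-fold and 62% of 100 changed 4-fold were recovered over all inhibitory neurons (11199 genes, 5 false calls), and 31% and 64% among Prkcd-negative ones (10216 genes, 2 false calls). Apart from the class change, the simulation gave each gene the same underlying level in every sample, so recovery in the real data can differ. Other tools were scipy 1.17.1, matplotlib 3.10.9, pandas 2.3.3, numpy 2.4.6 and Python 3.11.15.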

Additional observations from a re-analysis of the deposited data

Results flagged for a closer look

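Of 102 results examined for an outlying sample 9 had one, where chance gives about 5%. In most of these a single sample, often with few Penk-negative cells, stood apart from the other 8. Sample 9, which had 13 Penk-negative cells, stood lowest in the share difference of Tshz2 (-5.85 percentage points) and in the log2 ratios of CPM plus 1 of Isl1 (-4.13), Drd1a (-3.92) and Gad2 (-0.59). Sample 3 stood lowest for Gng7 (-1.81) and Id4 (-3.19). Aldoc of sample 5 (-0.65), Sst of sample 4 (-3.09) and Crh of sample 6 (-6.55) were lowest as well.

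The Penk difference depended on Prkcd in 7 genes by the test of the difference itself (edgeR, 8 samples). The adjusted p was 0.0141 for Nnat, 0.0141 for Pltp, 0.0141 for Ipcef1, 0.0141 for Rtkn, 0.0141 for Cacng5, 0.0233 for Syt4 and 0.0335 for Grin3a. All but Nnat and Syt4 had at most 7 counts in Penk-negative cells of 1 Prkcd class.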

How the results depend on the processing

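The counts of genes that passed moved with most settings. Over all inhibitory neurons, 14 higher and 9 lower genes became 165 and 282 with DESeq2, 67 and 49 with positive set at 3 counts per 10000, and 38 and 32 without cells at 0.3 to 3 counts of Penk per 10000. They became 4 and 2 with equal cell numbers, 3 and 1 without Isl1-positive cells, 1 and 0 in Prkcd-positive cells, and 2 and 1 without Sst, Crh, Tac2 or Nts cells. No filter gave 14 lower genes and thinned cells 5. Positive at 1 count, which left 6 samples and 41 Penk-negative cells, gave 0 and 0 (72 and 1048 at an unadjusted p under 0.05 in edgeR), as did sums per animal number (0 and 0) and per date field (0 and 0). With 1 sample left out, 4 to 30 were higher and 3 to 18 lower. Without the replicate block, 10 were higher and 13 lower.

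Among Prkcd-negative cells, 4 higher and 7 lower genes became 8 and 11 with median-of-ratios scaling, 90 and 267 with DESeq2, 7 and 18 with no filter, 20 and 16 at 3 counts per 10000, 0 and 1 with equal cell numbers, and 0 and 0 at 1 count (3 samples, with 42 and 302 at an unadjusted p under 0.05 in edgeR). Without the replicate block 0 were higher and 5 lower (395 and 329 at an unadjusted p under 0.05). With 1 sample left out 0 to 6 were higher and 4 to 10 lower. The marker shares gave 5 passing at 3 counts per 10000 and 3 without Mbp-positive cells. The log2 ratio of gene counts to spike-ins was 0.058 to 0.092, and that of gene counts per cell 0.051 to 0.11, with 1 sample left out.

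Log2 fold changes changed sign for the genes named next, most of which did not pass. Pdyn was at 0.02 without the replicate block, 0.41 at 3 counts per 10000, 0.55 with equal cell numbers, 0.035 thinned, 0.80 in Prkcd-positive cells, 1.38 without the peptide cells and 0.025 per date field. Crh was at 0.23, 0.81, 0.90, 0.0017 per animal, 1.74 in Prkcd-positive cells and 0.14 per date field, the first 3 in the same order of settings. Sst was at 0.40 at 3 counts per 10000, 1.56 with equal numbers, 0.27 without Isl1, 0.040 thinned, 0.51 in Prkcd-positive cells and 0.00933 without Chat. Oprm1 was at 0.20 without the replicate block, 0.21 per animal, 0.10 without the peptide cells and 0.24 per date field. Foxp2 was at 0.63 without the replicate block, 0.64 at 1 count, 0.47 without Mbp and 0.046 per date field. Tshz1 was at 0.39 without the replicate block, 0.14 at 3 counts per 10000, 0.054 with equal numbers, 0.62 per animal and 0.52 without the peptide cells. Cartpt was at 0.125 at 3 counts per 10000, 0.018 without Isl1, 0.040 in Prkcd-positive cells and 0.0026 per date field. Tac2 was at -0.93 at 1 count, -0.14 without cells at 0.3 to 3 and -0.42 without Mbp, and Nts at -0.77, -0.21 and -0.21. At 1 count Pnoc was at -0.55, Pomc -0.96, Uchl1 -0.0710, and among Prkcd-negative cells Aldoc -1.11, Satb1 -0.47 and Sparcl1 -0.50. In Prkcd-positive cells Sparcl1 was at -1.07, Nnat 0.0045, Pomc -0.49 and Tac1 -0.48. Drd1a was at -1.14 without Isl1 and Npy at 0.98 without the peptide cells. With 1 sample left out, Foxp2 ran from -0.91 to 0.47, Tshz1 from -0.70 to 0.15, Sst from -0.20 to 0.24, Tac2 from -0.065 to 0.51, Crh from -0.42 to 0.30, Oprm1 from -0.74 to 0.16 and Cartpt from -0.41 to 0.0035.

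Differences in share, in percentage points, changed sign at 1 count for Sst (-0.869), Cck (4.28), Calb1 (-8.42), Tox (-3.58), Rarb (9.55), Oprm1 (-5.94), Oprk1 (0.971) and Mbp (-2.60). They did so at 3 counts per 10000 for Foxp2 (-0.262) and Oprm1 (-0.185), without Mbp for Crh (-0.418), Tshz1 (-0.601) and Oprm1 (-0.680), and thinned for Rarb (0.019). With 1 sample left out Tshz1 ran from -0.305 to 0.759 and Foxp2 from -0.604 to 1.72. The cause of these changes was not tested. The Penk-negative class had as few as 13 cells and 1329159 gene counts in a sample, which limits the precision for genes of low level.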
